A study of Drosophila melanogaster with 14 samples.

Results

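Small RNAs of fly heads were compared between 4 libraries from flies that carried a tau transgene and 4 libraries from control flies, which the labels call wild type. These 8 samples, out of 14 in the series, were chosen because they are the small RNA libraries with columns in the deposited table of PIWI-interacting RNA (piRNA) counts. Tau is the microtubule-binding protein that aggregates in Alzheimer's disease and other tauopathies. The flies of both genotypes were Drosophila melanogaster crossed and aged at a single temperature, and 500 ng of RNA from pooled heads went into each library. Libraries of 1 genotype are biological replicates according to the design text. The sources used here do not give the tau allele, the promoter that drove it, the age of the flies or the number of heads pooled per small RNA library. The other 6 samples, total RNA of heads, were not analysed here.

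piRNAs are small RNAs that guide PIWI-clade Argonaute proteins to transcripts of transposable elements, mobile DNA sequences present in many copies, and they are best known from the germ line. MicroRNAs are cut from both arms of a hairpin precursor, and 1 arm usually accumulates while the other is degraded. They pair with target messenger RNAs through their seed, bases 2 to 8 from the 5′ end. The authors drew the reads with the sequences of piRNABank, a collection of sequences reported as piRNAs, so each measured item is a piRNABank entry, which need not be a piRNA. Entries were named here from the small RNA gene in which their listed genome location falls.

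The table listed 3326 entries of 19 to 31 nt. Small RNA genes gave names to 129 of them, of which 128 lay inside the gene and 1, named miR-14, near it. They were 46 entries of microRNA genes, 16 of 5S ribosomal RNA genes and 67 of genes of other structural RNAs (37 small nucleolar, 11 small nuclear, 10 transfer, 6 signal recognition particle and 3 RNase MRP). A further 2300 entries lay in no such gene and had 5 or more listed locations, and these are called repeat entries below. The library totals ran from 2826791 to 3859061 counts. The most counted entry alone, miR-276a, took 51.9% of all counts. Counts were scaled to 1000000 counts per library (CPM) with edgeR's TMM factors, which ran from 0.799 for control 1 to 1.35 for tau 1, so these 2 libraries stood apart. The total count averaged 3112420 ± 216362 for control and 3232980 ± 475167 for tau libraries (SD, n = 4 each, p = 0.714 by exact permutation). In bulk RNA, fewer cells of a type and less RNA per cell cannot be told apart.

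The sequences below are of selected microRNA entries, as the deposited table lists them in DNA letters, 5′ to 3′, with the seed in capitals. Abundant head microRNAs come first, with miR-2b and miR-13b, which share a seed with miR-11. The pair of miR-92 genes follows. Last are both arms of the miR-34, miR-275 and miR-306 hairpins, and miR-305. The genome build of the listed locations is not stated in the sources used here.
miR-276a, dme_piR_000227: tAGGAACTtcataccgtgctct
bantam, dme_piR_000835: tGAGATCAttttgaaagctgatt
miR-277, dme_piR_000238: tAAATGCActatctggtacgaca
let-7, dme_piR_000097: tGAGGTAGtaggttgtatagt
miR-11, dme_piR_000050: cATCACAGtctgagttcttgct
miR-2b, dme_piR_000062: tATCACAGccagctttgaggagcg
miR-13b, dme_piR_000832: tATCACAGccattttgacgagttt
miR-92a, dme_piR_000201: cATTGCACttgtcccggcctat
miR-92b, dme_piR_000578: aATTGCACtagtcccggcctgca
miR-34 5p arm, dme_piR_000224: tGGCAGTGtggttagctggttgtg
miR-34 3p arm, dme_piR_000089: cAGCCACTatcttcactgccgcc
miR-275 3p arm, dme_piR_000214: tCAGGTACctgaagtagcgcgcg
miR-275 5p arm, dme_piR_000397: cGCGCTAAtcagtgaccggggct
miR-306 5p arm, dme_piR_000059: tCAGGTACttagtgactctcaa
miR-306 3p arm, dme_piR_005660: gGGGGTCActctgtgcctgtgc
miR-305, dme_piR_004682: aTTGTACTtcatcaggtgctctggt

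Shared seeds join miR-92a with miR-92b, the more counted arm of miR-275 with that of miR-306, and miR-11 with miR-2b and miR-13b. The entry of miR-92a was listed at 3R:21472282-21472303 and that of miR-92b at 3R:21477179-21477201, both on the plus strand, inside microRNA genes, which code for no protein. The miR-275 hairpin (2L:7425814-7425875) and the miR-305 entry (2L:7425979-7426003) lay next to each other.

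The first comparison asked whether the make-up of the counts differed between genotypes. MicroRNA entries made up 94.2% ± 1.67 of control counts and 93.4% ± 3.08 of tau counts (SD, n = 4 each). Their share was 96.5, 92.5, 93.9 and 93.8% in control and 88.8, 95.03, 95.5 and 94.2% in tau, and the lowest library was tau 1. Entries in 5S rRNA genes took 0.663, 3.63, 3.17 and 2.83% in control and 7.22, 2.82, 2.56 and 3.40% in tau, with control 1 the lowest and tau 1 the highest. Small nucleolar RNA (snoRNA) entries, which come from RNAs that guide the modification and processing of ribosomal RNA, took 2.28, 3.19, 2.40 and 2.87% in control and 3.12, 1.62, 1.41 and 1.79% in tau. The groups overlapped in all 3 of these classes.

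Repeat entries, the class in which piRNAs against transposable elements would be counted, took 0.307, 0.280, 0.264 and 0.237% in control and 0.277, 0.261, 0.256 and 0.265% in tau. Their mean share was 0.272% ± 0.0295 in control and 0.265% ± 0.00872 in tau, a ratio of 0.972 (exact permutation p = 0.629). None of the 17 classes compared, by kind, length or first base, passed after Benjamini-Hochberg adjustment, and 4 against 4 libraries cannot give an exact p below 0.0286. A single class at that p could not pass after adjustment over 17 classes, so the test cannot show that the make-up was alike. With microRNA and rRNA entries left out of the total, 10 of the 15 remaining classes passed (adjusted p = 0.0429 by exact permutation), and the ratio of the repeat entries was 1.27 without passing. These classes share 1 small total, in which a fall of 1 large entry shifts the other shares. The U3 snoRNA entry described below, a large part of that total, had 48118, 58628, 37593 and 49369 counts in control. In tau it had 35650, 24979, 18565 and 24859. The 10 classes are thus not separate results, and how far this entry set their shares was not tested. With all counts in the total, the exact p of 0.0286 was reached by the entries that begin with C. They took 2.27, 3.58, 3.90 and 4.09% in control and 5.36, 4.84, 6.51 and 4.64% in tau (ratio 1.54, adjusted p = 0.194 by exact permutation). Every tau library was above every control library there, and the most counted entries with that first base were miR-11 and the 5p arm of miR-8. Entries of 2 to 4 locations outside the microRNA and 5S genes took 1.73% ± 0.323 in control and 1.01% ± 0.357 in tau, a ratio of 0.583 (adjusted p = 0.194 by exact permutation). Their most counted member was the U3 snoRNA entry described below.

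**Figure D1:**
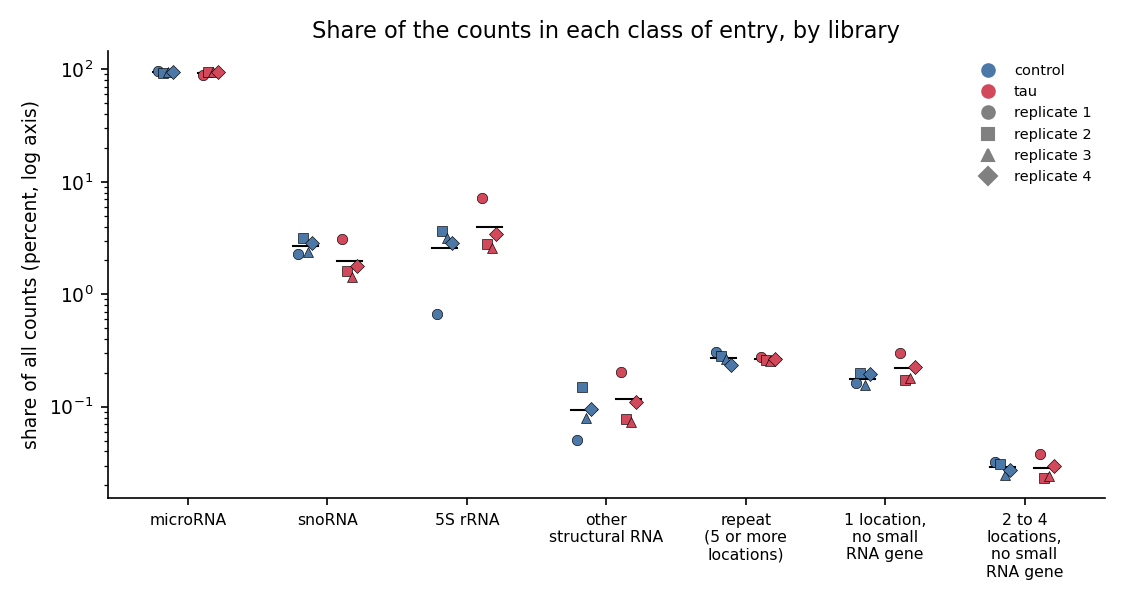
Share of all counts (percent, log axis) in 7 classes of entry, with 1 point per library, blue for control and red for tau, the shape giving the replicate and the bar the mean of 4. MicroRNA entries held 88.8 to 96.5% of the counts, repeat entries 0.237 to 0.307%, and the 2 genotypes overlapped in each class drawn.

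The second comparison asked which single entries differed. Of the 3326 entries, 249 passed edgeR's filter on low counts, and the other 3077 held 0.162% of all counts. The filter asks for about 10 counts in 4 libraries, so an entry could pass through 1 genotype alone. With edgeR's quasi-likelihood test and Benjamini-Hochberg adjustment over all 249, 6 entries (2.41%) rose in tau heads and 26 (10.4%) fell, at an adjusted p below 0.05. Groups did not overlap for 53 entries (21.3%), 17 of them higher and 36 lower in tau. The median log2 fold change over all tested entries was 0.06, and it was 0.27 with library totals and 0.28 when microRNA counts set the scale. Without tau 1, 46 entries fell, without tau 3, 40 fell, and without both, 4 rose and 33 fell. In the authors' deposited table, 8 entries were higher and 85 lower in tau at an adjusted p below 0.05, over a set of features that is not stated. Of the 26 falls, 24 were repeat entries (of 126 tested), 1 was a snoRNA entry (of 33) and 1 had 4 locations. The 6 rises were 3 microRNA entries (of 38 tested), 1 of 15 entries of 5S rRNA, 1 of 4 of the signal recognition particle RNA and 1 repeat entry.

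**Figure D2:**
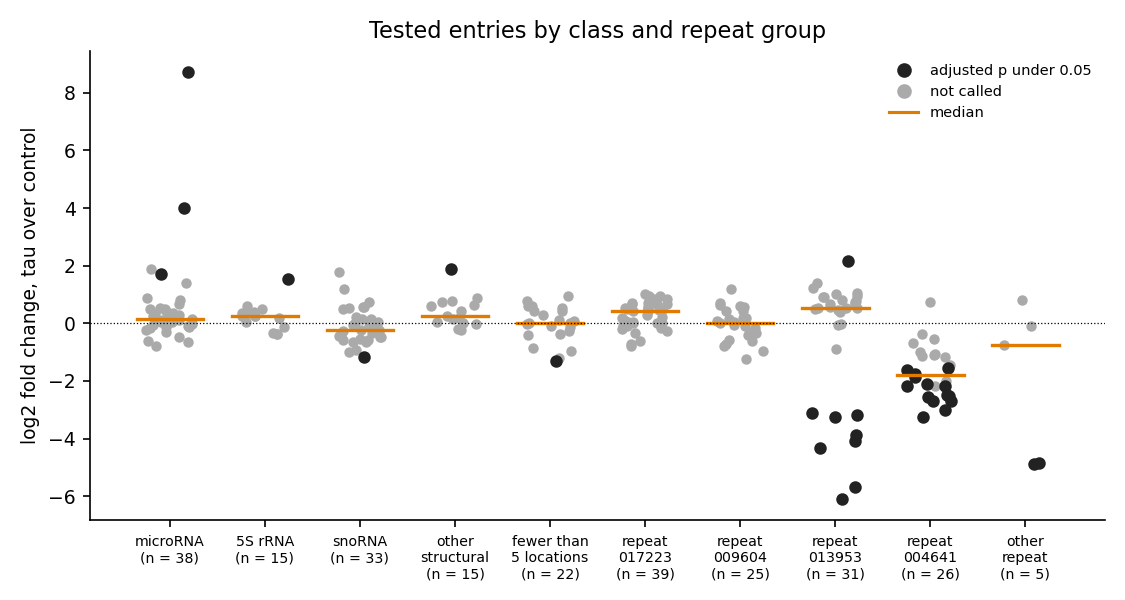
Log2 fold change of tau over control for each of the 249 tested entries, by class and repeat group, with black points for an adjusted p below 0.05, grey points for the rest and an orange bar for the median. The 24 called repeat falls sat in 3 groups, those of dme_piR_004641, dme_piR_013953 and, among the other repeats, dme_piR_002840.

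Few microRNA entries differed between the genotypes beyond the spread of their libraries. Of 38 tested, 3 rose, none fell and 35 did not pass, with a median log2 fold change of 0.14 beside 0.06 over all entries (35 microRNA gene names were represented). MiR-276a, which in flies is known for a role in olfactory memory, stood at 682891, 504511, 561771 and 586262 CPM in control and at 355616, 488019, 534472 and 503769 in tau (log2 fold change -0.31, edgeR adjusted p = 0.302). On the CPM scale with TMM factors the groups overlapped, with control 1 the highest and tau 1 the lowest. Without those factors, its counts were 1840850 of 3380071, 1611220 of 3029644, 1538960 of 2870217 and 1728450 of 3169752 in control. In tau they were 1392430 of 2903705, 1891980 of 3859061, 1432000 of 2826791 and 1734420 of 3342349. As a share of these totals every tau library was below every control, and with library totals the fall was not called either. MiR-34 is required in ageing fly brains for long-term neuronal integrity. It stood at 45685, 44272, 51842 and 63195 CPM in control and at 46590, 59721, 63426 and 58105 in tau (0.15, edgeR adjusted p = 0.694). Its groups overlapped too on that scale. As a share of the library totals, every tau library was above every control for miR-34, again with no call.

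A list of 19 microRNAs known from ageing and neurodegeneration had 12 members in the table, all of them tested through 14 entries. Of the 14, 1 rose (miR-92a), none fell and 13 did not pass, with a median of 0.10, where over all tested entries 2.41% rose and 10.4% fell. Bantam, a microRNA that promotes growth and blocks cell death, had a log2 fold change of -0.11, and let-7, a regulator of developmental timing, one of 0.05. MiR-277, which modifies repeat RNA toxicity in a fly disease model, stood at 0.37 on that scale, and miR-14, a suppressor of cell death, at 0.28. The adjusted p-values of these 4 ran from 0.391 to 0.934 in edgeR's test. MiR-184, whose loss disturbs oogenesis in flies, came closest to a call among the abundant entries. It stood at 151005, 69087, 71380 and 79434 CPM in control and at 45569, 59308, 54142 and 54910 in tau (-0.79 ± 0.262 SE, edgeR adjusted p = 0.0718). Every tau library lay below every control library, and control 1 was the highest by far. The fall of dme_piR_000194 was called with the authors' size factors (edgeR adjusted p = 0.0394), without control 2 (0.0491) and without replicate 1 of both genotypes (0.0494).

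Markers of the ovary were at low levels, and those of eye and brain at levels that overlapped between genotypes. Of 5 microRNAs of the ovary cluster and ovarian follicle cells (miR-310 to miR-313 and miR-318), 4 were in the table, and their summed level was 20.04 to 27.8 CPM in control and 19.8 to 35.5 in tau. MiR-318 alone passed the filter, with 50 to 75 counts in control and 49 to 90 in tau. The miR-310 entry, dme_piR_000824, had counts in tau 2 alone, where it had 13. Of 5 microRNAs of eye and brain, miR-7, which acts in photoreceptor differentiation, and miR-263a, which protects sensory bristles, were in the table, with a summed level of 93163 to 169540 CPM in control and 77150 to 125216 in tau. The muscle microRNA miR-1 matched no entry.

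Both miR-92 genes had an entry that rose in tau heads. These microRNAs share their seed and have roles in fly neuroblasts and muscle. The miR-92a entry had 0 counts in all 4 control libraries and 84, 29, 30 and 89 counts in the 4 tau libraries, or 21.5, 7.48, 11.2 and 25.8 CPM. It was thus at least 64.3-fold higher, with a floor of 3 counts over the control group, a bound that covers counting error only (higher in 4 of 4 tau libraries, edgeR adjusted p = 5.18e-04). The miR-92a entry passed the filter through its tau counts alone. The miR-92b entry dme_piR_000578 stood at 40.8, 17.2, 40.5 and 28.5 CPM in control and at 91.9, 49.5, 123 and 151 in tau (log2 fold change 1.71 ± 0.393 SE, edgeR adjusted p = 0.0107). All tau libraries lay above all controls for both entries.

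A second miR-92b entry, dme_piR_005545, starts 1 base upstream of the first, so that the seeds of both entries differ by that shift. It had 28, 83, 27 and 139 counts in control and 82, 27, 0 and 108 in tau, and the groups overlapped (-0.65, edgeR adjusted p = 0.698). Entries that differ by 1 base at their start thus had different calls, and the difference between them was not tested. With both miR-92b entries summed before testing, as described further below, the rise of miR-92b was not called. Another entry with an isolated 0 was that of miR-305, a microRNA of gut stem cell adaptation, with 6222, 4872, 2487 and 5491 counts in control and 2852, 15434, 0 and 10239 in tau.

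**Figure D3:**
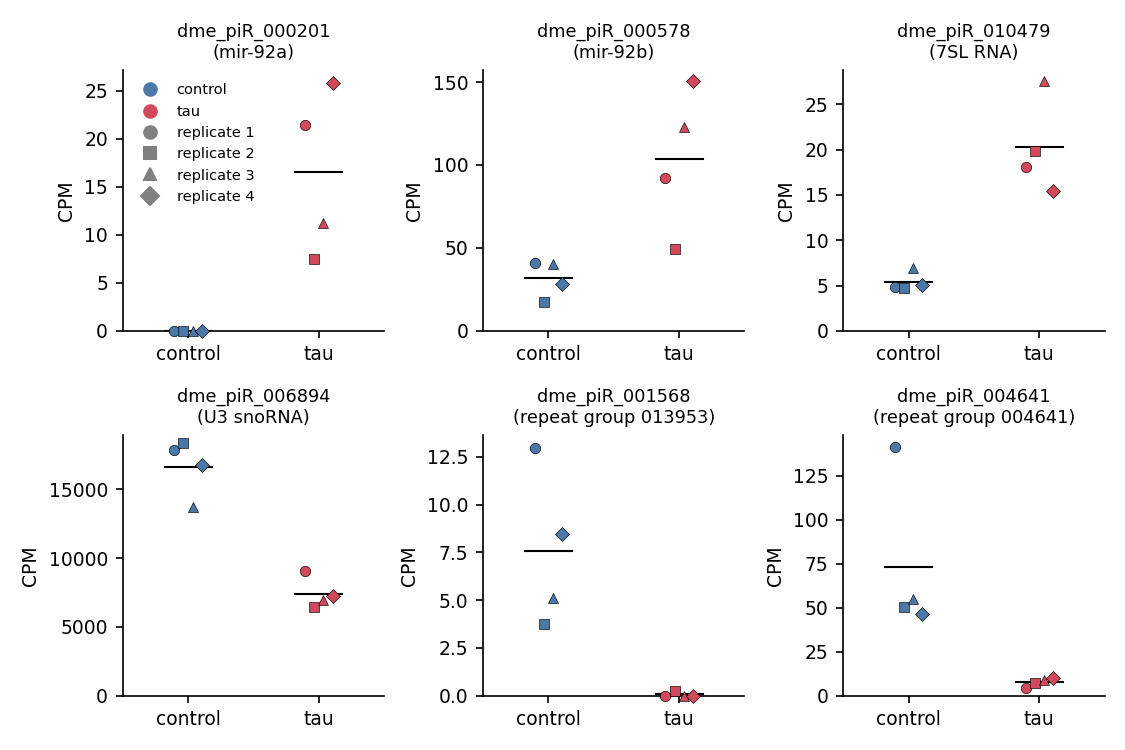
CPM of 6 entries in each library, on linear axes from 0, with circles, squares, triangles and diamonds for replicates 1 to 4 and a bar for the mean of 4. The miR-92a, miR-92b and 7SL RNA entries were higher in every tau library than in every control, and the U3 snoRNA entry and both repeat entries were lower.

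The third called microRNA entry came from the less counted arm of the miR-275 hairpin. MiR-275 is needed in mosquitoes for blood digestion and egg development. Its 5p arm entry dme_piR_000397, named after its values were seen, stood at 23, 40.1, 16.4 and 58.3 CPM in control and at 441, 57.8, 1687 and 35.1 in tau (log2 fold change 4.01 ± 1.05 SE, edgeR adjusted p = 0.0233). The groups overlapped, since tau 2 and tau 4 lay within the range of the controls. Without tau 1 and tau 3 together the log2 fold change was 0.59 (edgeR adjusted p = 0.496), and without tau 3 alone it was 2.35. The call of dme_piR_000397 was also lost without control 1 (edgeR adjusted p = 0.0750), control 3 (0.0767) or replicate 1 of both genotypes (0.103).

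Tau 1 and tau 3 stood out in the less counted arm of other hairpins as well. The 5p arm of miR-275 made up 4.54, 4.64, 1.64 and 4.32% of its hairpin's counts in control and 21.4, 4.004, 44.5 and 2.35% in tau. For the 3p arm of miR-306 the shares were 6.45, 8.69, 9.22 and 8.75% in control and 24.5, 6.94, 38.4 and 6.41% in tau. The 5p arm of miR-8, a regulator of growth and of neuronal survival in flies, took 21.3, 20.8, 19.6 and 25.8% in control and 39.3, 19.2, 43.2 and 20.7% in tau. In these 3 hairpins the order was the same, with tau 3 highest, tau 1 next, and tau 2 and tau 4 near or below the controls.

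The less counted arm of miR-34 took 2.76 to 4.91% in control and 4.44 to 6.08% in tau, and that of miR-9b 0.190 to 0.362% and 0.328 to 0.759%. None of these 5 hairpins passed an exact permutation test of the share (adjusted p from 0.286 to 0.400). With a smallest possible exact p of 0.0286, 1 hairpin alone could not pass after adjustment over 5. The more counted arm of miR-275 stood at 483, 823, 984 and 1292 CPM in control and at 1625, 1385, 2103 and 1462 in tau, above every control in all 4 libraries, though it did not pass (0.88 ± 0.326 SE, edgeR adjusted p = 0.108).

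**Figure D4:**
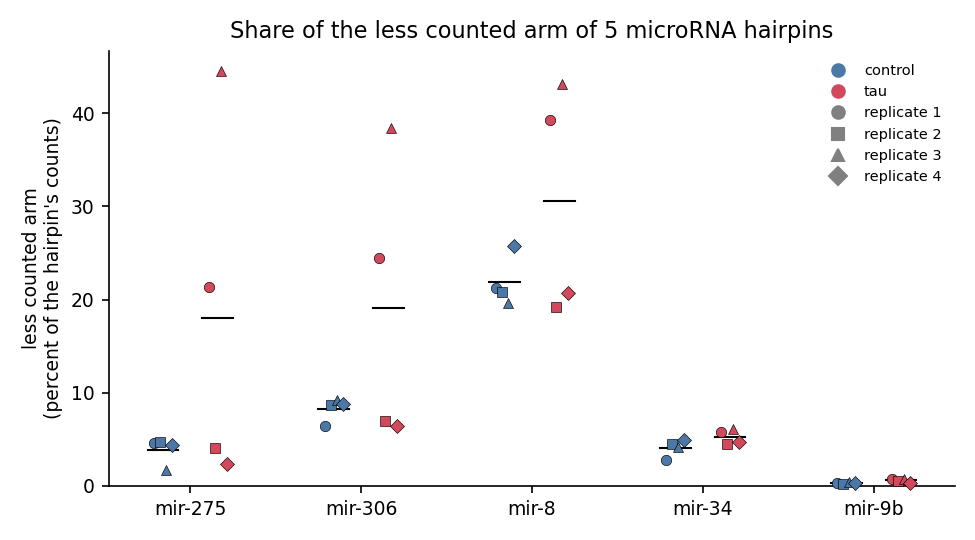
Share of the less counted arm among the counts of both arm entries (percent, axis from 0) for 5 microRNA hairpins, with 1 point per library, shapes for replicates and a bar for the mean of 4. In miR-275, miR-306 and miR-8, tau 1 and tau 3 reached 21.4 to 44.5%, while the 6 other libraries stayed between 1.64 and 25.8%.

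Fragments of structural RNAs had 3 called single entries. As a class, snoRNA entries did not pass with all counts in the total (ratio 0.740, adjusted p = 0.364 by exact permutation). With microRNA and rRNA entries left out of the total they did (ratio 0.914, adjusted p = 0.0429 by exact permutation). They were then 1 of the 10 classes that share 1 small total and are not separate results. Of 48 tested entries in structural RNA genes other than 5S rRNA, 1 rose, 1 fell and 46 did not pass, with a median log2 fold change of -0.01. The rise was dme_piR_010479, from the 7SL RNA of the signal recognition particle, which brings ribosomes to the endoplasmic reticulum. It stood at 4.82, 4.70, 6.94 and 5.09 CPM in control and at 18.1, 19.9, 27.6 and 15.4 in tau (1.90 ± 0.319 SE, edgeR adjusted p = 0.00119). The lowest tau library was above the highest control.

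Of the 5 other 7SL entries, 3 were tested and did not pass, and 2 were too rare to be tested. The log2 fold changes of the 3 were 0.24 for dme_piR_019877, 0.05 for dme_piR_005400 and -0.01 for dme_piR_005480. The called fragment and one that did not pass overlap by 9 bases, shown in capitals. They were listed at 3R:2648352-2648376 and 3R:2648368-2648390 on the plus strand, with a second copy of the gene on the minus strand.
dme_piR_010479: tatgggtgccatggagGAGTCCGTG
dme_piR_005480: GAGTCCGTGgcattcaggttggc

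Among snoRNA entries, 33 were tested, 1 fell and 32 did not pass, with a median of -0.23. The fall was dme_piR_006894, from the U3 snoRNA, which acts in the first cleavages of the ribosomal RNA precursor. It stood at 17850, 18358, 13723 and 16745 CPM in control and at 9105, 6443, 6929 and 7220 in tau (-1.17 ± 0.221 SE, edgeR adjusted p = 0.00281). Every tau library was below every control. When microRNA counts set the scale, its log2 fold change was -0.90 and its adjusted p 0.0503 in edgeR's test.

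Of 6 other tested U3 entries, 5 had negative log2 fold changes and none was called. The entry dme_piR_015622, from a U3 gene on the X chromosome, stood at 1605, 1820, 1710 and 1656 CPM in control and at 1558, 829, 869 and 1028 in tau, each tau value below each control (-0.66 ± 0.277 SE, edgeR adjusted p = 0.157). For dme_piR_002844 the log2 fold change was -0.09, for dme_piR_005463 -0.44, for dme_piR_010877 -0.28 and for dme_piR_004430 -0.93. The entry dme_piR_011639 went the other way, at 1.19, with its highest values in tau 3 (149 CPM) and tau 1 (80.2 CPM). The 6 had edgeR adjusted p-values of 0.101 to 0.898.

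The 2 most counted snoRNA entries of 1 location were also not called. One of them, from the guide RNA Me18S-C1831, had a log2 fold change of -0.46, and the other, from Psi28S-3342, one of 0.51. All 3 transfer RNA entries tested had positive log2 fold changes (0.75 to 0.88), and none passed. The serine transfer RNA entry dme_piR_012137 was higher in every tau library, at 54.2, 104, 74.5 and 109 CPM in control and 199, 112, 132 and 129 in tau (edgeR adjusted p = 0.157). Of 15 entries of 5S rRNA, the small RNA of the large ribosomal subunit, 1 rose and 14 did not pass. The riser, dme_piR_001264, stood at 3.34, 4.07, 5.48 and 11.2 CPM in control and at 16.1, 14.7, 28.0 and 12.5 in tau (1.55 ± 0.435 SE, edgeR adjusted p = 0.0328). Its call was lost without control 1, control 2, control 3, tau 1 or tau 3. The most counted 5S entry, dme_piR_005328, had 13569 counts in control 1 and 170518 in tau 1, with 58996 to 90526 in the 6 other libraries.

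Repeat entries showed the clearest differences, in some repeats and not in others. Of 126 tested, 24 fell, 1 rose and 101 did not pass, and their median log2 fold change was 0.01. Entries that lay within the same stretches of the genome were joined into 40 groups, each named after its most counted entry, since their counts share sequence and are not separate observations. Which transposable element each group belongs to is not named in the table. In the group of dme_piR_004641, 14 of 26 tested entries fell. In that of dme_piR_013953, 8 of 31 fell and 1 rose, and in that of dme_piR_002840 both tested entries fell. In the groups of dme_piR_017223 (39 tested) and dme_piR_009604 (25 tested) no entry passed, with medians of 0.41 and 0.02.

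The largest falls were almost complete. In the group of dme_piR_013953, the entry dme_piR_001568 had 35, 12, 14 and 25 counts in control and 0, 1, 0 and 0 in tau (log2 fold change -6.10 ± 0.814 SE, edgeR adjusted p = 5.18e-04). The entry dme_piR_006186 had 11, 12, 13 and 29 counts in control and 0, 0, 0 and 1 in tau (-5.67 ± 0.823 SE, edgeR adjusted p = 5.31e-04). Ratios of control over tau, from summed counts, were 103 (95% exact counting interval 18.1 to 4130) and 78.1 (13.5 to 3133). The 6 other falls of this group had log2 fold changes of -4.33 to -3.10. Each fall of this group had groups that did not overlap.

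These falls lay on one side of the repeat. Positions were counted from dme_piR_013953 along its copies, a reference and a split at 1000 nt that were both chosen after the values were seen, so they are a description with no test. Upstream of 1000 nt, 75 entries were placed. Their summed level was 165, 144, 155 and 135 CPM in control and 158, 257, 249 and 290 in tau, a ratio of 1.59 with overlapping groups. From 1000 nt on, the summed level of 106 entries was 245, 214, 197 and 262 CPM in control and 12.3, 23.2, 21.6 and 19.5 in tau, 12.0-fold lower, and every tau library was far below every control.

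All 8 falls were placed from 1852 to 3109 nt, whereas 21 of the 22 tested entries not called and the 1 riser were placed from -2106 to 516 nt. The remaining one, dme_piR_002883, could not be placed and had a log2 fold change of -0.90. Only 8 of the 106 entries from 1000 nt on were tested, and these passed the filter through their control counts alone. The positions of called and uncalled entries were thus partly fixed by the filter and add no support. Entries too rare to be tested showed the same break. The 98 such entries from 1000 nt on went from 171 to 15.3 CPM between the group means, while the 53 before it went from 41.2 to 68.8 CPM. In 500 nt bins, each of the 8 bins from 1000 to 5000 nt had every tau library below every control, with ratios of tau to control of 0.0186 to 0.114, and each of the 7 bins before it had a ratio of 1.20 to 1.94. The single riser, dme_piR_005712 at 270 nt, stood at 1.11, 0.626, 2.56 and 0.678 CPM in control and at 5.87, 6.19, 5.60 and 4.65 in tau (2.15 ± 0.504 SE, edgeR adjusted p = 0.0112). This riser passed the filter through its tau counts alone. Without control 3 the log2 fold change of dme_piR_005712 was 2.74. Its call was lost without replicate 1 of both genotypes (edgeR adjusted p = 0.0668) and without tau 1 and tau 3 (0.0569).

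**Figure D5:**
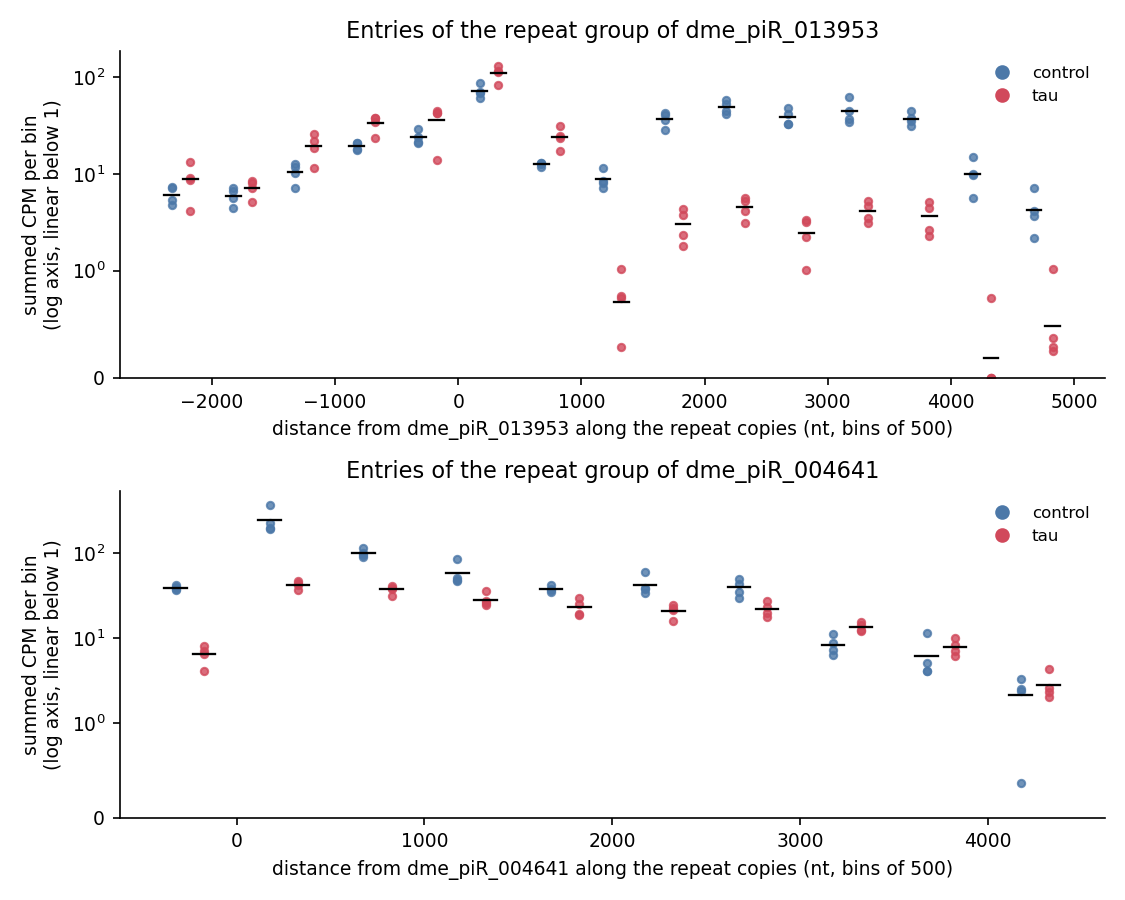
Summed CPM of all entries in bins of 500 nt (log axis, linear below 1) along the copies of 2 repeats, counted from the entry that names each group, with 1 point per library and a bar for the mean of 4. In the upper plot tau fell below control by about 10-fold or more in every bin from 1000 nt on and not before, and in the lower plot the gap narrowed with distance from the start and ended at 3000 nt.

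The group of dme_piR_004641 was lower in tau over most of its length. Its leading entry stood at 141, 50.4, 54.8 and 46.5 CPM in control and at 4.34, 6.96, 8.96 and 10.2 in tau (-3.27 ± 0.446 SE, edgeR adjusted p = 5.18e-04), and its neighbour dme_piR_010434 at 66.8, 26.3, 33.2 and 30.9 CPM against 4.34, 7.22, 2.99 and 4.65 (-3.01). Control 1 was the highest library for both, and no tau library reached a control. The 12 other called falls had log2 fold changes of -2.69 to -1.57. Of the 12 entries not called, 1 had a positive log2 fold change. Groups did not overlap for 21 of the 26 tested, all lower in tau, beside 53 of all 249 tested entries, 36 of them lower. Some of the 26 passed the filter through their control counts alone. One was dme_piR_004801, with 19, 28, 14 and 33 counts in control and 5, 3, 2 and 7 in tau. The direction of such entries was partly fixed by the filter and adds no support. The 26 share sequence and are not separate observations.

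The gap between the genotypes in this group shrank along the repeat, again as a description. The ratio of tau to control was 0.165 and 0.173 in the bins on either side of the leading entry, 0.374 from 500 to 1000 nt, and 0.487 to 0.611 in the 4 bins from 1000 to 3000 nt. In those 7 bins every tau library was below every control. Beyond 3000 nt the summed level of 47 rare entries was 26.0, 12.8, 12.8 and 15.3 CPM in control and 20.7, 26.6, 23.9 and 26.4 in tau, and the groups overlapped.

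In the group of dme_piR_002840 the falls sat in a still shorter stretch. The leading entry had 22, 21, 14 and 30 counts in control and 1, 0, 2 and 0 in tau (-4.86 ± 0.712 SE, edgeR adjusted p = 5.31e-04). The other tested entry, dme_piR_006908, had 21, 11, 12 and 16 counts against 2, 0, 0 and 0 (-4.87 ± 0.799 SE, edgeR adjusted p = 0.00104). Both passed the filter through their control counts alone. From -500 to 0 nt the summed level of 13 entries was 21.3 ± 4.15 CPM in control and 0.917 ± 0.246 in tau, and from 0 to 500 nt that of 7 entries was 11.2 ± 3.33 and 3.00 ± 0.295 (SD, n = 4 each). In no other bin of this group were all tau libraries below all controls. Outside the repeat groups, dme_piR_004046, with 4 locations, fell from 135, 97.7, 104 and 81.7 CPM to 48.5, 35.9, 36.6 and 49.4 (-1.30, edgeR adjusted p = 0.00539).

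The counts of repeat entries began with T, the DNA letter for the uridine that many primary piRNAs carry first, in 70.5% ± 1.72 of cases in control and 70.6% ± 1.78 in tau. An A at position 10, frequent in piRNAs made by slicing of a paired transcript, was found in 35.6% ± 1.13 and 34.5% ± 0.816 (SD, n = 4 each). Of the 43 tested repeat entries with A at that position 10 fell and none rose, and of the 83 others 14 fell and 1 rose. The mean length of the counted repeat sequences was 25.94 to 26.01 nt in control and 26.04 to 26.09 nt in tau, and the groups did not overlap. In the group of dme_piR_013953 the groups did not overlap in length (25.86 to 26.07 nt in control, 25.46 to 25.60 nt in tau) or in the share with A at position 10 (33.1 to 36.5% and 29.8 to 31.8%). In that of dme_piR_004641, lengths were 25.44 to 25.54 nt in control and 25.61 to 25.71 nt in tau. Lengths also did not overlap in the group of dme_piR_017223, where no entry was called (26.40 to 26.46 nt and 26.47 to 26.55 nt). The same held for that of dme_piR_002840 (25.65 to 25.76 nt and 25.88 to 26.6 nt). In that of dme_piR_009604, also without a call, they overlapped. Among the 24 falls, 16 began with T, beside 90 of all 126 tested repeat entries. The lengths of the 24 ran from 22 to 28 nt.

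Counts were also summed over entries of the same source before testing, so that a repeat or a microRNA counted once. Of 126 such features, 2 rose (1.59%) and 4 fell (3.17%) in edgeR's quasi-likelihood test, 22 had an unadjusted p below 0.05, and groups did not overlap for 16 (12.7%). The rises were miR-92a and the 7SL entry. The falls were the repeat of dme_piR_002840 (-1.97 ± 0.235 SE, edgeR adjusted p = 7.94e-04), dme_piR_004046 (-1.30), the U3 entry (-1.17) and the repeat of dme_piR_004641 (-1.11 ± 0.244 SE, edgeR adjusted p = 0.0208). Summed over all its entries, the repeat of dme_piR_002840 had 136, 97, 101 and 130 counts in control and 42, 35, 25 and 41 in tau. That of dme_piR_004641 had 2572, 1892, 1817 and 1742 counts against 1084, 1238, 933 and 1168, and every tau library was below every control. The call of the dme_piR_004641 repeat was lost without control 3, without tau 4, without tau 1 and tau 3 together, and when microRNA counts set the scale (edgeR adjusted p from 0.0534 to 0.0731). The calls of dme_piR_004046 and the U3 entry, both single entries, were lost with library totals (0.0624 and 0.0715, edgeR adjusted p). With microRNA scaling they were lost too (0.0843 for both, edgeR adjusted p). That of dme_piR_004046 was also lost without tau 1 and tau 3 (edgeR adjusted p = 0.0626). Without those 2 libraries the 7SL rise was not called either (edgeR adjusted p = 0.0731). Without tau 2, 4 of the summed features rose.

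The repeat of dme_piR_013953, whose parts went in opposite directions, had 1339, 1360, 1180 and 1345 counts in control and 828, 1344, 917 and 1243 in tau as a whole (-0.50 ± 0.249 SE, edgeR adjusted p = 0.305). Of the 37 microRNA features tested, 1 rose and none fell, and the 5S rRNA sum, at a log2 fold change of 0.38, was not called. The repeats of dme_piR_017223 and dme_piR_009604 stood at 958 ± 201 and 453 ± 110 CPM in control and at 979 ± 140 and 448 ± 62.3 in tau (SD, n = 4 each).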

How the data were processed

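Small RNA libraries were made from fly heads with an oligonucleotide that blocked 2S ribosomal RNA, per the labels' protocols. Reads were extracted with sortmerna and piRNABank sequences, per the series' design text, and Trimmomatic 0.36 and DESeq2 1.14.1 were used, per the submitters' processing notes. The deposited table holds whole-number raw read counts per entry and library, the largest of them given to 6 significant digits. It also holds the authors' mean of normalised counts, a signal from which the authors' size factors were solved, and a log2 fold change with p-values and adjusted p-values, which were used here only for 1 count of calls from the authors' deposited table. The handling of reads that match several entries or copies is not given in the sources used here, so entries with overlapping sequence may have shared or split reads. The reads carry no molecular identifiers, so bounds and intervals (95%, floor of 3 counts over the group) cover counting error only, and depth beyond the extracted reads is unknown. The total-RNA table was not used.

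The 2 rows without a name were left out. Counts were tested with edgeR 4.0.16 in R 4.3.3 by the quasi-likelihood F-test with TMM factors, after edgeR's own filter at a minimum count of 10. P-values are two-sided and adjusted by Benjamini and Hochberg's method, and calls were made at 0.05. DESeq2 1.42.0 was an alternative. The test was checked on simulated counts. For class shares, totals and arm shares, exact permutation tests (two-sided) ran over all 70 assignments of the 8 libraries. CPM were computed here and are given as mean ± SD or per library. Replicates were labelled biological in the design text.

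No microRNA sequences or genome were used. Entries were named by matching the order and spacing of listed locations on each chromosome arm to the small RNA genes of RefSeq Release 6, since the build of the locations is not stated, and 105 of 128 anchor locations fell inside such a gene on the 5 arms that could be named. Entries with 5 or more locations were joined into repeat groups when at least 0.5 of the 10 kb tiles of the entry with fewer tiles were shared. Classes planned by sequence match to microRNAs were therefore made by location, and the classes of snoRNA, other structural RNA and entries in no small RNA gene were added after the values were seen.

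Members, gene lists and tests were chosen with earlier results of these data known. Named entries were the called entries with the largest changes and groups that did not overlap (up to 12 rises and 16 falls), the 12 with the highest mean CPM, the 2 highest of each class, the highest of each repeat group with at least 5 tested entries, and the ageing list. Entries of 5S rRNA, U3 and 7SL beyond these, and the arms of miR-275 and miR-306, were named after their values were seen. Alternatives were other scalings, filters and tools, a replicate block, and each library left out.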

Additional observations from a re-analysis of the deposited data

Results flagged for a closer look

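In 11 of 144 groups of 4 libraries examined, 1 library lay far from the 3 others by Dixon's criterion, where chance gives about 1 in 20 groups. Tau 1 had the highest share of counts that began with G (6.76%), and tau 3 the highest level of the miR-34 3p arm entry dme_piR_000089 (4103 CPM). Control 1 was highest for miR-184 (dme_piR_000194, 151005 CPM), for the repeat entries dme_piR_004641 (141 CPM) and dme_piR_010434 (66.8 CPM), and lowest for the 5S rRNA entry dme_piR_005328 (5034 CPM). Control 4 was highest for the repeat entry dme_piR_006186 (9.84 CPM), and control 3 lowest for the miR-275 5p arm (1.64% of the hairpin). In tau, single libraries held the counts of 3 repeat entries that were otherwise at 0, namely dme_piR_001568 (0.258 CPM), dme_piR_006186 (0.290 CPM) and dme_piR_006908 (0.511 CPM).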

How the results depend on the processing

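Of the named values under each alternative, 991 kept direction and side of the threshold, 30 lost the call, 7 gained one and 40 changed sign, all 40 in entries never called, and the cause was not tested. Of 26 entry falls and 6 rises, 20 calls held in every alternative with a value. DESeq2, which tested more entries, called 58 falls. With no filter 24 rises and 99 falls were called, and among summed features 14 and 11. With microRNA and rRNA entries left out of the fit, 3 entries rose. Without replicate 1 of both genotypes, 3 entries rose, and 5 summed features rose and 9 fell. Without tau 1 and tau 3, an alternative chosen after seeing the data, 1 summed feature rose and 2 fell. Library totals gave 2 falls of summed features and microRNA scaling 1. With single libraries left out, entry rises ran from 4 to 9 and falls from 26 to 46, and those of summed features from 2 to 4 and 3 to 5.

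No label says that replicate numbers pair the libraries. Correlations of same-numbered deviations were -0.356, -0.357, 0.293 and 0.104. Those of other numbers ran from -0.349 to 0.341, a similar range, so they cannot decide whether libraries were paired. With the replicate block, 3 entries rose and 20 fell, and 2 and 3 summed features. The block left uncalled dme_piR_000397 (log2 fold change 2.55, edgeR adjusted p = 0.356), dme_piR_001264 (0.0744), dme_piR_005712 (0.0546), dme_piR_007757 (0.0744) and the summed repeat of dme_piR_004641 (0.0825).

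Class ratios of tau over control, with microRNA and rRNA entries left out of the total, were 1.31 for 1 location, 0.729 for 2 to 4 and 1.27 for 5 or more, 1.27 for repeat entries, 1.25 for 2 to 4 locations in no small RNA gene, 1.38 under 23 nt, 0.981 for 23 to 29 nt, 2.73 over 29 nt, 0.914 for snoRNA, 1.57 for 1 location in no small RNA gene, and 0.753, 1.45, 1.44 and 1.15 for first base A, C, G and T. Of these, the adjusted exact permutation p was 0.0429 for all but 5 or more locations, repeat entries, 2 to 4 locations in no small RNA gene and first base T. They are shares of 1 smaller total and not separate results. Left-out libraries gave ratios of 0.984 to 1.01 for microRNA, 0.861 to 1.19 for 1 location, 0.933 to 1.02 for 5 or more, 0.932 to 1.02 for repeats, 0.921 to 1.55 for other structural RNA, and 0.886 to 1.05 for 2 to 4 locations in no small RNA gene. The last was 1.00 with 10 or more locations as the repeat class. The total ratio of 1.04 was 0.875 with the authors' size factors and 0.972 to 1.08 with libraries left out.

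Log2 fold changes that changed sign were those of miR-8 dme_piR_000001 (0.022 with totals, 0.027 with microRNA scaling, 0.031 without tau 1 and tau 3), bantam dme_piR_000835 (0.075, 0.085 and 0.13, and 0.16 without replicate 1 of both) and miR-7 dme_piR_000840 (0.028, 0.041, 0.041 and 0.12). That of miR-263a dme_piR_000294 was 0.18, 0.20, 0.15 and 0.088, with 0.074 in DESeq2, 0.069 with no filter and 0.042 without the 10 most counted. For dme_piR_002844 it was 0.14, 0.16 and 0.031, with 0.018 in DESeq2. Without replicate 1 of both it was -0.042 for dme_piR_000716, -0.30 for dme_piR_004466 and -0.18 for dme_piR_005328. It was -0.14 for dme_piR_000787 without tau 1 and tau 3, and -1.02 for dme_piR_004682 with the block. Left-out libraries gave -0.047 to 0.081 for dme_piR_000097, -0.20 to 0.11 for dme_piR_000294, -0.030 to 0.88 for dme_piR_000787, -0.25 to 0.072 for dme_piR_000835, -0.32 to 0.066 for dme_piR_000840, -0.38 to 0.044 for dme_piR_002844, -0.22 to 0.35 for dme_piR_004466 and -0.40 to 0.66 for dme_piR_004682. The alternative with an 18 nt microRNA match was not run. Depth limits the rare entries, since 1896 of 3326 had at most 10 counts over all libraries.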
